A study of Mus musculus with 272 samples.

Results

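The chaperonin TRiC, also called CCT, is a barrel of stacked rings in which newly made proteins fold in an enclosed chamber driven by ATP. Each ring holds a copy of every subunit in a fixed order, so that all subunits are needed for a complete ring. Its best known clients are actin and tubulin, which prefoldin hands over to it, and a group of proteins with WD40 repeats that includes the cell cycle activator Cdc20. The members described here are its 8 subunit genes, taken by symbol from the deposited table, Tcp1 (subunit alpha), Cct2 (beta), Cct3 (gamma), Cct4 (delta), Cct5 (epsilon), Cct6a (zeta), Cct7 (eta) and Cct8 (theta). They are 8 of the 15771 gene symbols used. The 8 subunits were followed to see how alike their transcripts were in level, in change between stages and in position along sucrose gradients.

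The samples were mouse oocytes and preimplantation embryos of 8 stages, the germinal vesicle (GV) oocyte, the metaphase II (MII) oocyte, the zygote, the 2-cell, 4-cell and 8-cell embryo, morula and blastocyst. Per stage there were 4 transcriptome libraries, each from a pool of 20, which makes 32. There were also 3 gradients per stage, each from a lysate of about 100 oocytes or embryos made in buffer with cycloheximide, which stops ribosomes on their transcripts, and each cut into 10 fractions, which makes 240 fraction libraries. The labels name no strain, age or treatment other than the stage, the pools of a stage come from the batch used for its gradients, and nothing says that they were collected separately, so p-values measure the spread between these samples. The RNA is labelled as polyadenylated, and values are CPM, the reads of a gene scaled to a library total of 1 M.

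Transcriptome libraries held 11.2 to 24.3 M reads and fraction libraries 0.0102 to 43.2 M. Stage markers followed the labels. Summed over 8 oocyte genes such as Zp3 and Gdf9, the GV libraries had 18575 to 21443 CPM and the blastocysts 7.28 to 12.9 CPM. Summed over 5 genes of the 2-cell embryo such as Zscan4c, 2-cell libraries had 2061 to 2859 CPM against at most 84.8 CPM at any other stage, and summed over 7 blastocyst genes such as Cdx2, blastocysts had 2301 to 2918 CPM against at most 293 CPM elsewhere. Of the somatic genes of the follicle, Cyp19a1 and Fshr were measured, and their sum was 37.5 to 44.2 CPM in GV, 59.7 to 68.9 CPM in MII and 48.1 to 59.95 CPM in zygote libraries, and at most 0.227 CPM from the 4-cell stage on. The part of follicle cells in the values of the early stages was not tested.

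In oocytes and zygotes the subunit transcripts were present at very unequal levels, and from the 4-cell stage on at similar ones. In GV oocytes Cct5 was the most abundant, with 749.8, 767, 726 and 787 CPM in the 4 libraries. Cct6a was the least abundant there, with 2.10, 4.73, 2.65 and 2.09 CPM. No library of any other subunit came below 44.3 CPM in GV oocytes, so the Cct6a values lay apart from those of all 7 others. They were low but above the limit of detection, with 28 to 65 reads per GV library, 29 to 55 per MII library and 11 to 38 per zygote library, where 3 reads were taken as the floor.

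Because CPM does not correct for length, levels of different subunits were compared as CPM per kb of the longest spliced transcript of each gene, 1853 bases for Cct5 to 2484 bases for Cct4. In GV oocytes the order was Cct5 (409 ± 14.1 CPM per kb, SD, n = 4), Cct3 (226 ± 6.74), Cct8 (196 ± 11.3), Cct2 (84.3 ± 2.16), Tcp1 (76.6 ± 4.64), Cct7 (32.8 ± 3.78), Cct4 (21.4 ± 4.10) and Cct6a (1.18 ± 0.510). Of neighbours in this order, Cct2 and Tcp1 overlapped between libraries and the others did not. The highest subunit exceeded the lowest 215 to 498 times within a library.

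Cct8 took the first place in MII oocytes, with 172 ± 12.6 CPM per kb against 105 ± 16.0 for Cct5, and held it in zygotes (269 ± 15.7), in 2-cell (99.1 ± 10.7), 4-cell (406 ± 19.5) and 8-cell embryos (386 ± 27.7). In zygotes the next in order, Cct5 with 55.5 ± 5.37, Cct2 with 53.9 ± 2.07 and Cct3 with 51.7 ± 2.55 CPM per kb, overlapped as neighbours. Cct4 and Cct6a were the lowest subunits at each stage from GV to 2-cell. In the 2-cell embryo these 2 overlapped, with 13.4 ± 2.18 for Cct4 and 12.2 ± 1.16 CPM per kb for Cct6a.

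After the 2-cell stage the order closed up. In 4-cell embryos all neighbours in the order overlapped between libraries, from Cct8 (406 ± 19.5 CPM per kb) and Cct4 (393 ± 49.5) to Tcp1 (212 ± 24.1) and Cct6a (202 ± 13.0), and the highest exceeded the lowest 1.91 to 2.24 times within a library. In blastocysts Cct2 was the highest (350.4 ± 21.7 CPM per kb), Cct6a the third (319 ± 31.8) and Tcp1 the lowest (104 ± 29.1), and Tcp1 was the only subunit set apart from its neighbour.

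**Figure D1:**
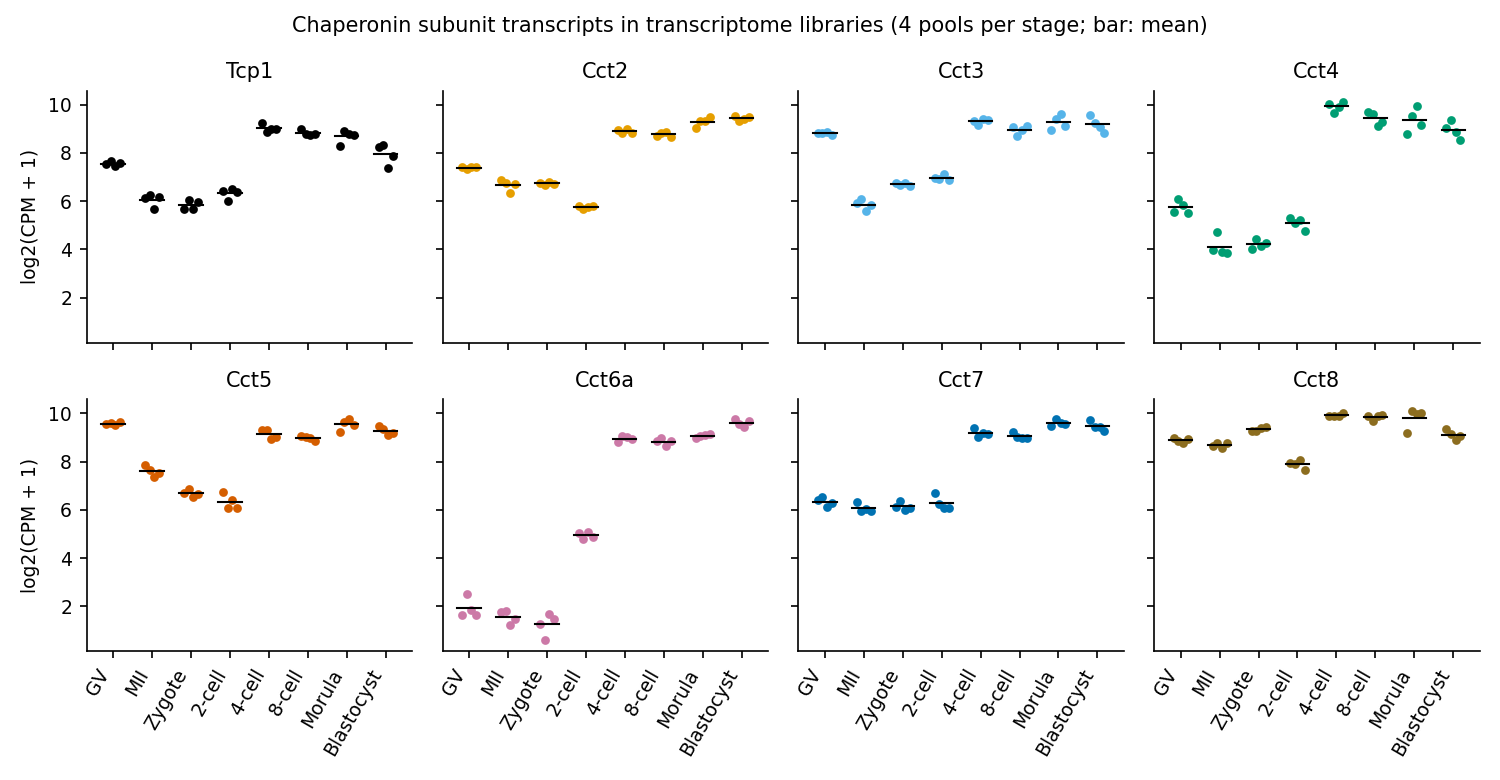
Level of each subunit as log2(CPM + 1) in the 32 transcriptome libraries, 1 panel per gene, with 4 points per stage and a bar at their mean. Cct6a lies far below the other subunits from GV to zygote, and all 8 subunits have similar levels from the 4-cell stage on.

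The closing up can be read from the spread among subunits within a library, the SD over the 8 genes of log2(CPM per kb + 1). It was 2.41 ± 0.12 (SD over 4 libraries) in GV oocytes, 2.09 ± 0.06 in MII oocytes, 2.21 ± 0.06 in zygotes, 1.00 ± 0.01 in 2-cell embryos, 0.40 ± 0.04 in 4-cell and 0.37 ± 0.02 in 8-cell embryos, 0.45 ± 0.03 in morulae and 0.60 ± 0.13 in blastocysts. Each of the libraries up to the zygote had a wider spread than every later library. Without Cct6a, left out after its values were seen, the spread was 1.52 ± 0.08 in GV oocytes, 1.54 ± 0.07 in zygotes, 0.91 ± 0.03 in 2-cell and 0.38 ± 0.06 in 4-cell embryos.

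Subunits of other complexes were not as even in the 4-cell embryo. Over the 14 core subunits of the 20S proteasome, which degrades proteins marked with ubiquitin, the same SD was 1.22 in GV oocytes, 3.16 ± 0.08 in MII oocytes and 0.94 ± 0.03 in 4-cell embryos. Over the 6 subunits of prefoldin it was 1.25 ± 0.04, 2.41 ± 0.05 and 1.46 ± 0.08. These are descriptions of the lists, with no test of one list against another.

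**Figure D2:**
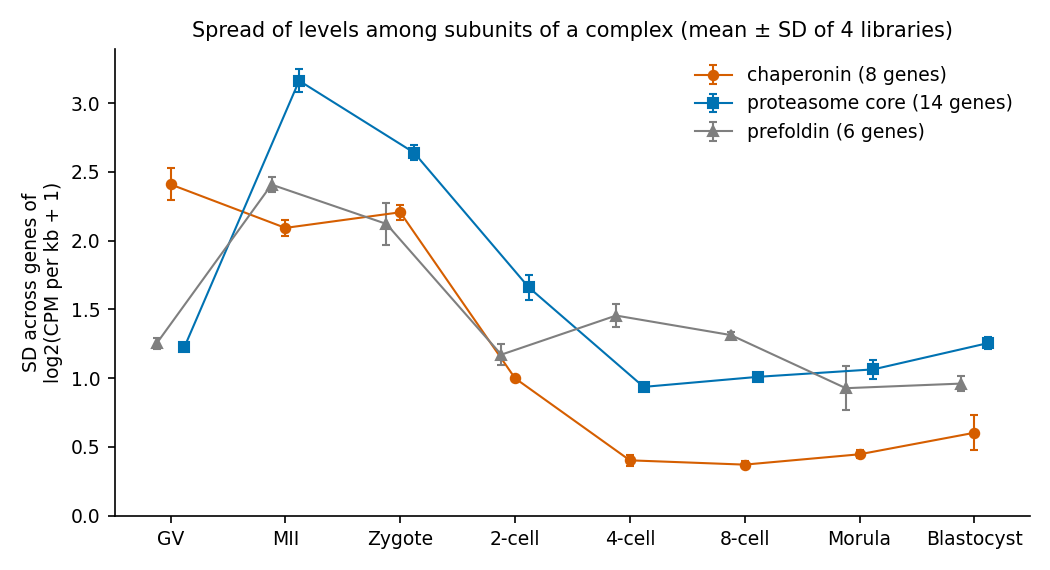
Spread among the subunits of a complex, as the SD across genes of log2(CPM per kb + 1) within a library, by stage, with the mean and SD of 4 libraries. The chaperonin falls from 2.41 in GV oocytes to 0.40 in 4-cell embryos, and the proteasome core and prefoldin have their highest values in MII oocytes.

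Changes between consecutive stages were tested with limma on log2(CPM + 1) over 14642 genes, with the Benjamini-Hochberg adjusted p over all of them. Calls required an adjusted p below 0.05 together with a log2(CPM + 1) difference of 1 or more in size. From GV to MII 4 of the 8 subunits fell, where 25.3% of all genes tested fell. Cct3 fell most, from 453, 449, 459.8 and 429 CPM to 59.7, 65.9, 47.2 and 56.3 CPM (change -2.95, SE 0.14, limma adjusted p 7.9e-20). Cct5 fell by 1.97 (SE 0.14), Cct4 by 1.63 (SE 0.21) and Tcp1 by 1.51 (SE 0.16), and for each of the 4 the GV and MII libraries did not overlap. Cct2 changed by -0.71 (SE 0.11, limma adjusted p 1.1e-06), under the size required.

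Cct8, Cct7 and Cct6a did not pass the test from GV to MII, with changes of -0.19 (SE 0.13), -0.27 (SE 0.14) and -0.34 (SE 0.18). The median change of the 8 subunits was -1.11 and that of all genes -0.11. Since CPM is a share of the library, a change in it says nothing of the amount of RNA per oocyte. The pools of both stages were made of the same number of oocytes. For any follicle cells among them, and for the cell types of later embryos, fewer cells and less RNA per cell cannot be told apart. Quantile normalization moved the median of all genes by 0.27 in this transition and put 1 uncalled subunit above 0, and edgeR put 2 above 0. Both called 4 subunits.

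From MII to zygote limma called 0 of the 8 subunits, where 10.3% of genes were called in either direction. At an unadjusted p under 0.05 there were 3, namely Cct3 (0.83, SE 0.14), Cct8 (0.64, SE 0.13) and Cct5 (-0.91, SE 0.14), and edgeR called 0 too.

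From zygote to 2-cell the lowest subunit rose and the highest fell. Cct6a went from 1.38, 0.522, 2.22 and 1.78 CPM to 31.9, 26.9, 32.9 and 28.4 CPM (change 3.70, SE 0.18, limma adjusted p 6.7e-19). Cct8 went from 619.5, 607, 667 and 685 CPM to 245, 238, 263 and 202 CPM (change -1.44, SE 0.13, limma adjusted p 1.8e-11). No library of one stage reached the range of the other in either gene. Of all genes 25.2% rose and 8.71% fell in this transition. The other 6 subunits were not called, with changes from -0.98 (Cct2) to 0.87 (Cct4). Cct2 was called after quantile normalization (-1.11) and in edgeR (-1.31).

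All 8 subunits rose from the 2-cell to the 4-cell stage, where 31.8% of genes rose. Cct4 rose most, from 38.0, 33.0, 36.3 and 25.8 CPM to 1031, 813, 964 and 1100.5 CPM (change 4.84, SE 0.21, limma adjusted p 2.1e-21). Cct6a rose by 4.00 (SE 0.18) to 454, 525, 515 and 485 CPM, so that over 2 transitions it went from the lowest subunit by far to the level of the others. Cct8, the highest in the 2-cell embryo, rose least, by 2.03 (SE 0.13) to 938, 955, 951 and 1040.1 CPM. The changes of the other subunits were 2.33 (Cct3), 2.69 (Tcp1), 2.81 (Cct5), 2.92 (Cct7) and 3.14 (Cct2). In every subunit the lowest 4-cell library was above the highest 2-cell library. The median over the 8 subunits was 2.87 and that over all genes 0.02. Summed over the 8 subunits, the libraries held 642 to 787 CPM in 2-cell and 4915 to 5437 CPM in 4-cell embryos.

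From the 4-cell stage on no subunit was called. From 4-cell to 8-cell limma called 0 of 8, with 2 at an unadjusted p under 0.05 and 0 called by edgeR, where 2.6% of genes were called. From 8-cell to morula it called 0, with 4 at an unadjusted p under 0.05 and 0 called by edgeR (11.9% of genes), and the changes of Cct5 (0.56, SE 0.14), Cct7 (0.54, SE 0.14) and Cct2 (0.53, SE 0.11) had an adjusted p under 0.05 but missed the size required. From morula to blastocyst it called 0, with 3 at an unadjusted p under 0.05 (26.8% of genes). Those were Tcp1 (-0.73, SE 0.16), Cct8 (-0.71, SE 0.13) and Cct6a (0.54, SE 0.18), and edgeR called Cct8 alone, with -1.02. Thus Cct6a and Tcp1 had changes of opposite sign at the same step, and in blastocysts Cct6a had 874, 754, 691 and 811 CPM and Tcp1 164 to 322 CPM.

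**Figure D3:**
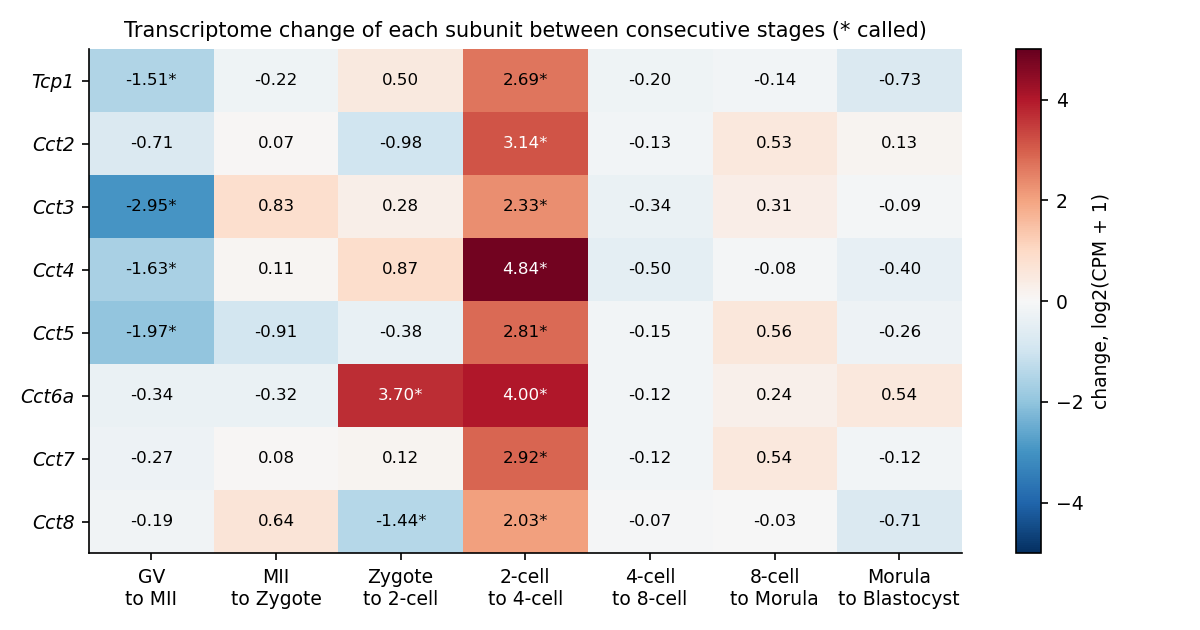
Change of each subunit (rows) between consecutive stages (columns) in transcriptome libraries, as a difference of means of log2(CPM + 1), with an asterisk where the gene was called by limma. All 8 subunits rise from 2-cell to 4-cell, 4 fall from GV to MII, and Cct6a and Cct8 move in opposite directions from zygote to 2-cell.

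To ask which subunits moved apart from the complex, each was set against the mean of the 8 in the same library and tested with limma in the same way. Setting genes against this mean carries the change of the complex itself into all of them. Shares of all genes called reflect that change and give no background for counts of subunits. From GV to MII 2 of the 8 were called, where 64.7% of all genes were called against this reference, with a median change of 1.08. Cct3 fell by 1.76 (SE 0.12) relative to the complex and Cct8 rose by 1.01 (SE 0.12). Cct8 was close to the size required, and its change was 0.96 without GV library B, 0.99 without GV library C and 0.97 without either MII library C or D, which ended its call. Against the median of the 8 instead of the mean, 4 subunits were called.

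From zygote to 2-cell 3 subunits were called against the mean of the complex, where 30.6% of genes were. Cct6a rose by 3.36 (SE 0.18), Cct8 fell by 1.78 (SE 0.12) and Cct2 fell by 1.31 (SE 0.13). From 2-cell to 4-cell 2 subunits were called, where 86.5% of genes were. The median change of all genes against this reference was -3.08, so that share restates the rise of the complex. Cct4 rose by 1.75 (SE 0.17) and Cct8 fell by 1.06 (SE 0.12). With the median as reference Cct2 in the first of these steps (-0.82) and Cct8 in the second (-0.88) were not called. No subunit was called against the mean of the complex in the other 4 steps by limma, the one tool run on this measure, which gave 3, 0, 5 and 4 subunits at an unadjusted p under 0.05 in order of development (10.1%, 1.81%, 11.7% and 30.1% of genes called).

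As the 8 genes all rose at the 2-cell to 4-cell step, their promoters were read from a RefSeq table of windows on GRCm38.p6, from 250 bases before to 50 after each start. The table matched 7 of the 8 subunits with 9 windows, and Cct4 was not matched. A GC box, GGGCGG on either strand, which Sp family factors bind, stood in at least 1 window of all 7 subunits and in 8 of the 9 windows, against 35.7% of all 32851 windows. CCAAT, bound by NF-Y, stood in those of 4 (Cct3, Cct6a, Cct7 and Tcp1) against 37.4%. CCGGAAG, an ETS type sequence, stood in those of 3 (Cct2, Cct8 and Tcp1) against 8.86%, and the NRF1 motif in those of 2 (Cct3 and Cct5) against 4.60%. The heat shock type sequence GAANNTTC stood in a window of Cct2 alone against 7.86%. A GC box can overlap another match where the letters allow, and these matches are descriptions of the letters only.

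A GC box is printed for the 4 subunits that have one whose surrounding 30 bases lie upstream of the start and outside annotated exons, since it is the sequence all 7 matched subunits share. Where several boxes of a gene's first window met this rule, the one closest to the start was taken. Boxes that did not meet it are not printed, such as one of Cct7 that is closer to the start. Letters run 5′ to 3′ on the strand of the gene, with the box in capitals, written as CCGCCC where it is on the other strand. The stretches are at chr10:117063880-117063909 on the minus strand (Cct2), chr3:88297029-88297058 on the plus strand (Cct3), chr6:85451437-85451466 on the plus strand (Cct7) and chr16:87495900-87495929 on the minus strand (Cct8), all on GRCm38.p6.
Cct2: ccaactgaggtcCCGCCCcttctccagcga
Cct3: ttcttgcgtagaGGGCGGggctaatactgt
Cct7: cagttcgcggccCCGCCCccgcactcctcc
Cct8: tgcaggttgaagGGGCGGggcgaccggaag
The printed box begins 45 bases before the start in Cct2, 94 in Cct3, 56 in Cct7 and 48 in Cct8. All 7 matched subunits hold a GC box, and a relation of the box to the rise was not tested. The printed stretch of Cct8 also ends on the ETS type letters listed above.

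Several subunits overlap a neighbour on the opposite strand in the GENCODE vM21 annotation, and reads from shared bases cannot be told apart without strand. Cct6a overlaps Psph, which had stage means of 3.81 to 13.9 CPM. Tcp1 overlaps Mrpl18 (87.7 to 253 CPM) and Acat3 (at most 0.668 CPM), Cct8 overlaps Usp16 (140 to 660 CPM) and Cct7 overlaps Pradc1 (6.07 to 107 CPM). Acat3 did not pass the filter on low values in transcriptomes. From 2-cell to 4-cell the changes of the 4 neighbours tested were all above 0, from 0.72 (Usp16) to 0.87 (Psph), with a median of 0.76 against 0.02 over all genes. All 4 had an unadjusted p under 0.05 and a limma adjusted p of at most 0.0010, but missed the size required, so that limma called 0 of them and edgeR 0, where 31.8% of genes rose. Their part in the changes of the subunits was not tested. A pseudogene with 93.5% identity to Cct7, Gm5380, had at most 2.58 ± 0.43 CPM (2-cell) beside 77.1 ± 17.5 CPM of Cct7, and reads split between these copies are uncertain. Cct3 has a pseudogene copy of 91.4% identity that was not analysed here, as were 2 small RNA genes on the strand of Tcp1 and Cct6a.

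Likeness over development was described by Pearson's r of each subunit with the mean of the other 7 over the 8 stage means of log2(CPM + 1). Stages share the large step from 2-cell to 4-cell, so these r values are descriptions and carry no test. Cct4 was most like the others (r = 0.990, rank 59 of 14635 genes set against the same mean). It was followed by Cct7 (0.973, rank 358), Tcp1 (0.949, rank 1141), Cct2 (0.939, rank 1368), Cct3 (0.894, rank 2515) and Cct6a (0.875, rank 2194). Cct5 (0.756) and Cct8 (0.700) were least like the others, at ranks 4663 and 5160. These 2 were the highest subunits of the GV and the MII oocyte. The 28 pairs had a median r of 0.84 and ran from 0.53 (Cct6a and Cct8) to 0.97 (Cct4 and Cct7).

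The proteasome core had a similar median on this measure with a wider range, and prefoldin a lower median. The 91 pairs of proteasome core subunits had a median r of 0.86, from -0.44 to 0.99. The 15 pairs of prefoldin subunits had a median of 0.55, from -0.83 to 0.98. Within the stages from GV to 2-cell alone the 28 chaperonin pairs had a median r of 0.45, from -0.93 to 0.97 over 4 stage means, and from the 4-cell stage to the blastocyst 0.15, from -0.96 to 0.98. Within either span of stages the median r was thus lower than over all 8 stages. Each span leaves out the large step from 2-cell to 4-cell, so its r values cannot tell whether the subunits were less alike there. Over the stage means of fractions 6 to 10 the 28 pairs had a median r of 0.70, from 0.10 to 0.95, and Tcp1 was most like the others (0.970) and Cct8 least (0.610).

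The 5 other genes most like the mean of the 8 subunits over the 32 transcriptome libraries were Rpl4 (r = 0.994), Surf2 (0.991), Rpl10 (0.991), Rpl11 (0.991) and Gm6136 (0.991). Rpl4, Rpl10 and Rpl11 encode proteins of the large ribosomal subunit. Rpl4 had 281 ± 10.5 CPM in GV oocytes, 70.7 ± 11.8 CPM in MII oocytes, 126 ± 21.1 CPM in 2-cell and 1473 ± 98.6 CPM in 4-cell embryos (SD, n = 4), and thus both the fall and the rise described above. The libraries share stage and the step from 2-cell to 4-cell, and no p is given.

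Partners of the chaperonin did not all rise with it. Of the 6 prefoldin genes 3 rose (Pfdn6, Pfdn2 and Pfdn5) and 1 fell (Pfdn4) from 2-cell to 4-cell, with a median change of 1.19 against 0.02 for all genes, of which 31.8% rose and 32.9% fell. Pfdn4 fell from 84.3 ± 12.5 to 30.3 ± 3.66 CPM, after a fall from 402 ± 45.4 CPM in zygotes. Of 6 tubulin folding cofactors, which assemble tubulin dimers after the chaperonin, 1 rose (Tbce) and 1 fell (Tbca). Of the 3 phosducin-like cofactors measured, limma called 0 in this step, with 2 at an unadjusted p under 0.05, and edgeR called 1, Pdcl3. Cct6b, the paralog of Cct6a known from testis, rose with it but had stage means of at most 22.4 ± 7.90 CPM (morula) in transcriptomes. Single fractions could be higher, such as 337 CPM in fraction 5 of 4-cell gradient A.

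Of 19 genes for actins, tubulins and WD40 proteins and other known clients, 7 rose and 6 fell from 2-cell to 4-cell (median 0.32), where 31.8% and 32.9% of all genes did. From 8-cell to morula 8 of them rose (median 0.85 against 0.07 for all genes), where 8.18% of all genes rose, and from morula to blastocyst 9 rose (median 0.86 against 0.16), where 18.8% did. Actb, a cytoplasmic actin, rose from 885 ± 327 CPM in 8-cell embryos to 1877 ± 243 CPM in morulae, a call that edgeR did not make. It had 3419.7 ± 521 CPM in blastocysts, a step at which it was not called. Tuba1b, an alpha tubulin called at both steps, went from 25.3 ± 4.31 CPM in morulae to 169 ± 40.2 CPM in blastocysts. The mitochondrial chaperonin, made of Hspd1 and its lid Hspe1, rose from 8-cell to morula, with Hspe1 going from 93.5 to 149 CPM in the 4 libraries to 349 to 457 CPM. Of this pair edgeR called Hspe1 alone at that step. Hspd1 had also risen from 2-cell to 4-cell. Of the 14 proteasome core genes 13 rose from 2-cell to 4-cell (median 2.59, 31.8% of all genes) and 8 fell from GV to MII (median -1.44, 25.3% of all genes).

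The gradients were used to see where the subunit transcripts lay. Transcripts with more ribosomes sediment further, fractions carry only numbers in the labels, and fractions 6 to 10 were taken as heavy and 1 to 5 as light. Each fraction is scaled to its own total, so these values compare shares of fractions and not amounts. Reproducibility differed between stages. Across fractions 2 to 10 a subunit had 0 reads in 24.5% of the 216 values in 2-cell embryos, 8.33% in 4-cell embryos, and none in morulae or blastocysts, and the median coefficient of variation over 3 gradients was 121% in 2-cell, 130% in 4-cell and 84.2% in 8-cell embryos against 39.2% in morulae and 26.4% in blastocysts.

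In morulae all 8 subunits were highest in fraction 10, in each of the 3 gradients (24 of 24 profiles), where 3.07% of 15172 genes had their highest CPM in fraction 10 of all 3 gradients. Cct7 had 1853, 2429 and 1837 CPM there, Cct5 1059, 1315 and 1124 CPM and Cct8 664, 699 and 1023 CPM. The lowest were Cct2 with 267, 432 and 562 CPM and Tcp1 with 438, 288 and 552 CPM. Of the 14 proteasome core genes 0 and of the 6 prefoldin genes 0 had fraction 10 as the highest in all 3 gradients, and 5 of 42 and 0 of 18 of their profiles did. These counts are descriptions, with no test of one list against another.

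In blastocysts 2 of the 8 subunits, Cct3 and Cct7, were highest in fraction 10 of all 3 gradients (2.41% of genes), and 13 of 24 profiles were. Cct7 stood out, with 3113, 5758 and 4074 CPM in fraction 10 and 2365 ± 919.7 CPM in fraction 9. Per kb it had 1768 ± 549 CPM in fraction 10, against 468 ± 60.7 for Cct5, the next subunit, and the lowest Cct7 gradient was above the highest gradient of every other subunit. In the transcriptome of the same stage Cct7, with 292 ± 39.1 CPM per kb, was the fifth of the 8 and overlapped with its neighbours. In GV oocytes 2 subunits, Cct2 and Cct8, had fraction 10 as the highest in all 3 gradients (1.96% of genes), and in MII, zygote, 2-cell, 4-cell and 8-cell samples 0 did (0.738%, 0.336%, 0.349%, 0.132% and 0.448%).

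**Figure D4:**
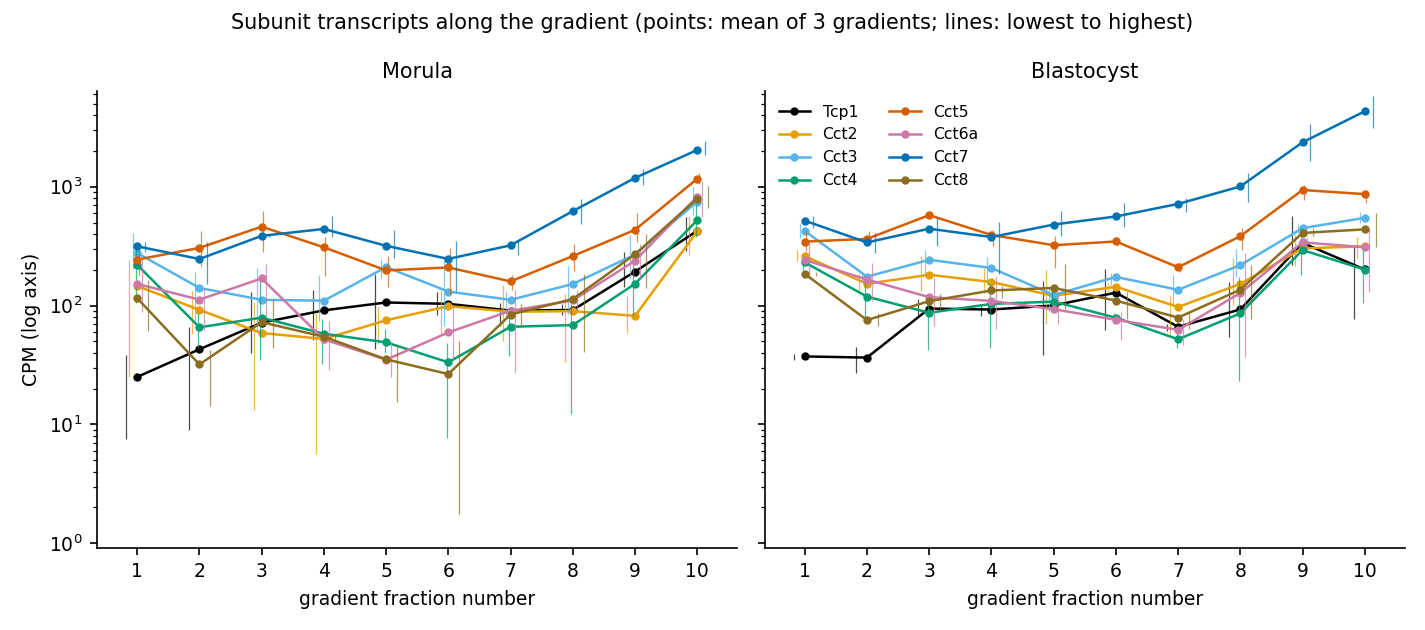
CPM of each subunit (log axis) in fractions 1 to 10 of morula and blastocyst gradients, with points at the mean of 3 gradients and lines from the lowest to the highest gradient. All 8 subunits have their highest morula mean in fraction 10, and Cct7 is the highest subunit in fractions 8 to 10 of both stages.

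The mean fraction number of a transcript, each fraction number weighted by its CPM, sums up its position. In morulae it was 8.04 ± 0.25 for Cct8 (SD, n = 3 gradients), 7.38 ± 0.35 for Tcp1, 7.35 ± 0.18 for Cct7, 7.30 ± 0.57 for Cct6a, and from 6.53 ± 0.11 (Cct5) to 6.71 ± 0.74 (Cct4) for the others, with a median of 7.003 over subunits against 5.74 over all genes with a mean CPM of at least 1. Cct8 had a higher value than 95% of genes, whose limit was 7.67. In blastocysts it was 7.81 ± 0.27 for Cct7, over the limit of 7.14 for 95% of genes, and from 5.71 ± 0.46 (Cct4) to 6.89 ± 0.48 (Tcp1) for the others. In MII oocytes the median over subunits was 5.28 against 5.61 over all genes, and Cct5, the most abundant subunit next to Cct8, had the lowest value, 4.71 ± 0.44, with its highest CPM in fraction 3 of every gradient (279 ± 8.98 CPM in fraction 3 and 44.4 ± 35.9 CPM in fraction 10).

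Heavy against light fractions were tested within each stage with limma over 15172 genes. In blastocysts 1 of the 8 subunits was called higher in heavy fractions, Cct7, where 0.633% of genes were. Its mean over heavy fractions was 1793 ± 524 CPM and over light ones 432 ± 71.9 CPM (difference 2.02 on the log2 scale, SE 0.49, limma adjusted p 0.010). The sides did not overlap in 5 of the 8, Tcp1, Cct3, Cct5, Cct7 and Cct8, all with the heavy side higher, which held for 16.1% of genes. With any 1 of the 3 blastocyst gradients left out the difference was 1.86 to 2.13 and was no longer called.

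In morulae limma called 0 of 8, with 4 at an unadjusted p under 0.05 and 0 called by edgeR, where 1.64% of genes were called higher. All 8 differences were above 0, from 0.54 (Cct5, SE 0.58) to 2.06 (Cct8, SE 0.75), with a median of 1.14 against 0.00 over all genes. In each of the 8 the lowest heavy mean of the 3 gradients was above the highest light mean, which held for 16.3% of genes. The fit shares one estimate of the spread over all stages, and with the morula groups alone 4 were called higher, namely Tcp1 (1.40), Cct6a (1.33), Cct7 (1.35) and Cct8 (2.06), where 8.26% of the genes in that fit were. With the gradient as a block Cct7 was called (limma adjusted p 0.030).

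In GV, MII, zygote and 8-cell samples limma called 0 of 8, with 0, 0, 1 and 0 at an unadjusted p under 0.05 and 0 called by edgeR at any of these stages, where 0.0725%, 3.23%, 3.01% and 9.05% of genes were called. In zygotes the 1 was Cct8, with heavy means of 170, 195 and 288 CPM and light means of 85.9, 46.4 and 57.1 CPM (difference 1.78, SE 0.75, limma adjusted p 0.25). The heavy side lay above the light one without overlap, as for 16.3% of genes, and Cct8 was called with 1.78 when only the zygote groups entered the fit, where 13.2% of genes were called higher. In MII oocytes Cct5 had heavy means of 79.4, 72.2 and 65.3 CPM and light means of 127, 165 and 189 CPM (difference -1.13, SE 0.58, limma adjusted p 0.43), with the heavy side lower without overlap, as for 18% of genes, and was called with only the MII groups in the fit, where 6.81% of genes were called lower.

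In 2-cell embryos 3 of 8 subunits were called (18.2% of genes), Cct8 higher in heavy fractions (2.69, SE 0.75), Cct5 lower (-2.36, SE 0.58) and Cct6a lower (-1.91, SE 0.63). In 4-cell embryos 2 were called (16.3% of genes), both lower, Cct4 (-2.71, SE 0.79) and Cct3 (-2.13, SE 0.70). With only the groups of the stage in the fit, or with edgeR, 0 of the 8 were called at either stage, where limma on those groups called 1.9% of all genes in 2-cell and 0 genes in 4-cell embryos. The gradients disagreed, as for Cct3 in 4-cell embryos, which had heavy means of 3.92, 162 and 18.8 CPM and light means of 121, 55.7 and 190.0 CPM. Cct8 in 2-cell embryos had heavy means of 61.7, 19.8 and 44.9 CPM and light means of 5.03, 1.13 and 16.4 CPM, and its heavy side was higher without overlap, as for 7.98% of genes. The call of Cct8 was lost without gradient A (2.35) or B (2.39), that of Cct5 without C (-1.35) and that of Cct6a without any 1 of A, B and C. Those of Cct3 and Cct4 were lost without A (-0.87 and -2.16) or C (-1.56 and -2.36), and with the gradient as a block Cct3 was not called (adjusted p 0.065). Both were also lost with fraction 1 left out. In that fraction Cct4 had 50.4, 2.35 and 55.9 CPM in gradients A, B and C, from 9, 1 and 19 reads.

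**Figure D5:**
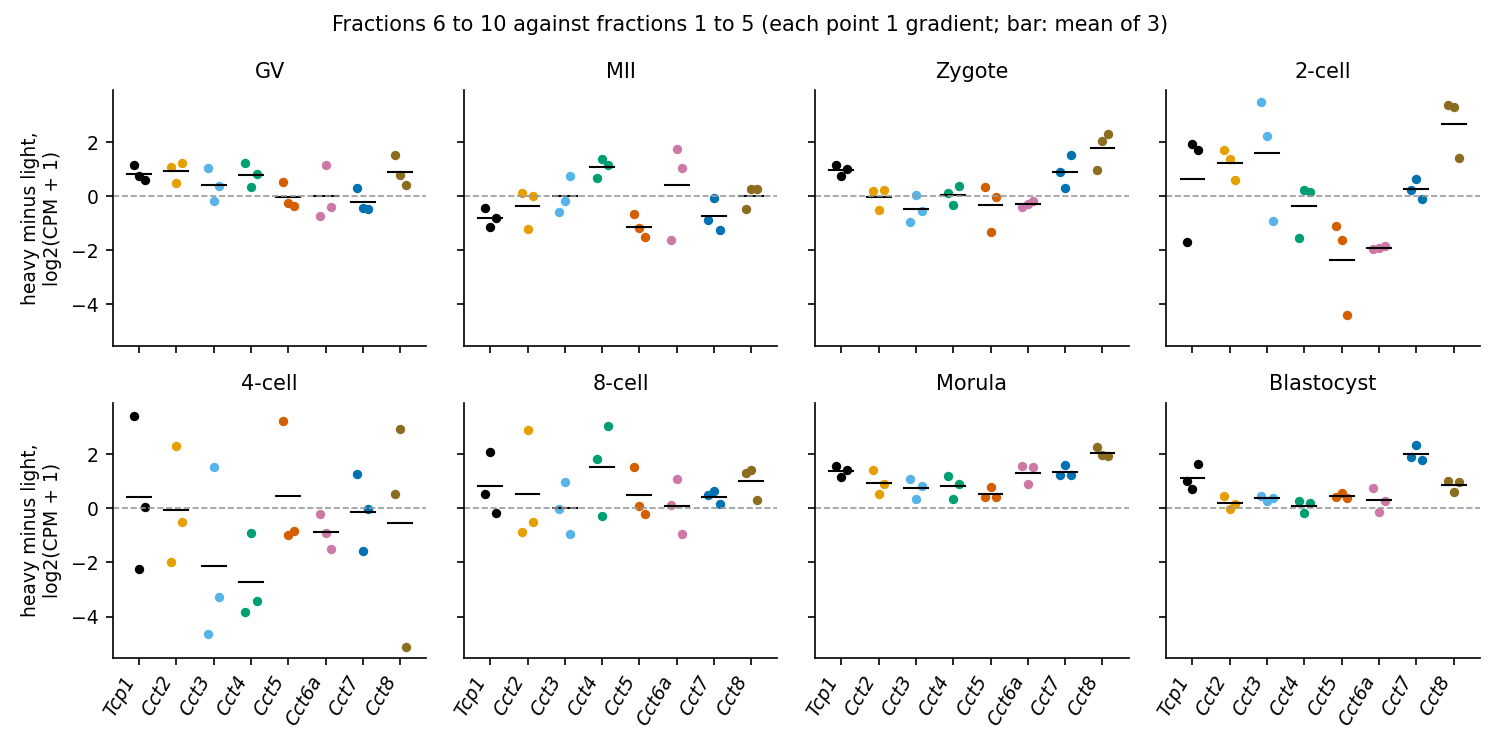
Difference between the mean of fractions 6 to 10 and that of fractions 1 to 5 of each subunit on the log2(CPM + 1) scale, 1 panel per stage, with 1 point per gradient and a bar at the mean of 3. The points lie above 0 for all 8 subunits in morulae, Cct7 is highest in blastocysts, and the gradients of the 4-cell stage scatter most.

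Finally, an interaction term tested whether heavy fractions changed more or less than transcriptomes between stages, with limma over 15165 genes. From zygote to 2-cell 4 of 8 subunits were lower than the transcriptome change (26% of genes), Cct4 (-3.78, SE 0.75), Cct6a (-2.51, SE 0.63), Tcp1 (-1.94, SE 0.48) and Cct5 (-1.92, SE 0.56). From 2-cell to 4-cell 4 were lower (18% of genes), Cct4 (-5.57, SE 0.75), Cct3 (-3.93, SE 0.71), Cct8 (-3.46, SE 0.65) and Tcp1 (-1.83, SE 0.48). From 4-cell to 8-cell 5 were higher (12% of genes), Cct4 (5.03, SE 0.75), Cct8 (2.92, SE 0.65), Cct3 (2.56, SE 0.71), Tcp1 (2.15, SE 0.48) and Cct5 (1.63, SE 0.56). The median term over all genes had the same sign as the called subunits in each of these steps, -0.89, -0.16 and 0.40 in order. The subunit terms thus include a shift shared with the typical gene. Cct5 lost its zygote to 2-cell call without zygote gradient A (-1.47) or 2-cell gradient C (-1.04).

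Cct4 shows the size of these terms. In 4-cell embryos it had 0.921, 22.3 and 0.495 CPM over heavy fractions, at a transcriptome level of 977 ± 123 CPM. Per heavy fraction it had 2 to 14 reads in gradient A, 0 to 1299 in B and 2 to 10 in C, with 3 reads as the floor. In 8-cell embryos it had 95.5 ± 29.4 CPM over heavy fractions at a transcriptome level of 696 ± 136 CPM. In edgeR 2, 3 and 1 of the 8 were called in these 3 steps, and with only the 4-cell and 8-cell groups in the fit 1 was from 4-cell to 8-cell, where 3.12% of genes were. These 3 terms use the heavy fractions of the 2-cell, 4-cell and 8-cell stages, which varied between gradients as given above, and the part of that variation was not tested. Leaving out 4-cell gradient A moved Cct3 from 2.56 to 1.39 and 8-cell gradient B to 1.95, each ending its call from 4-cell to 8-cell, and Cct5 lost its call there without any 1 of 11 of the 14 libraries. From GV to MII, MII to zygote, 8-cell to morula and morula to blastocyst limma called 0 of 8, with 1, 0, 2 and 1 at an unadjusted p under 0.05 and 0 called by edgeR in each (8.22%, 2.28%, 6.45% and 2.2% of genes).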

How the data were processed

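The authors deposited 1 table of CPM values per gene symbol and library, scaled to the library total. Trim Galore 0.6.7, FastQC, HISAT2 2.2.1, featureCounts 2.0.1, edgeR and GRCm39 stand in the submitters' processing notes, without roles. The deposited sums pass 1 M in 38 of the columns and in 0 once 1 symbol of each set of identical rows was kept. The 9 with the highest sums, all 4 blastocyst transcriptomes among them, were recorded as a signal that the authors deposited per 1 M reads, and all were used as CPM. All values were whole multiples of 1 read within 0.05 reads, which gave depth and the counts for edgeR. Amplified reads carry no molecular identifiers, so floors cover counting error only. Columns of the 2-cell transcriptomes carry letters E to H that match no label, and these were used as a group without replicate letter.

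limma 3.58.1 (lmFit, eBayes with trend, R 4.3.3) was fitted on log2(CPM + 1) over all stages, keeping genes that reached 1 CPM in 4 transcriptomes, or otherwise in 3 samples. This scale understates the change of low genes. edgeR 4.0.16 (quasi-likelihood, TMM) on recovered reads was an alternative. Scripts were tested on simulated data. Over 288 replicate pairs the chi-square per degree of freedom was at least 2.55, so no library counted as a repeat. Named genes were the 8 subunits, list members called or largest in change, and the 5 genes most like the subunit mean. Members and lists were chosen with earlier results of these data known, and overlapping neighbours were added from the annotation afterwards. Letters were not taken to pair transcriptomes: same-letter deviations of consecutive stages had r from -0.19 to 0.18. Both sides of a gradient come from 1 lysate and are paired by design. Transcript lengths and overlaps come from GENCODE vM21, promoters from RefSeq on GRCm38.p6. As the build differs from that of the files, no coordinates of measured genes are given. Protein sequences and Cct8l1, Pdcl2, Amh, Inhba, Foxl2, Has2 and Ptx3 were not analysed here.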

Additional observations from a re-analysis of the deposited data

Results flagged for a closer look

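Among the 64 groups of 4 transcriptome libraries, 6 had a library apart from the other 3 by Dixon's test, where chance flags about 1 group in 20. Cct8 accounts for 3 of them, with 583 CPM in morula library A against 1009 to 1090.1 CPM in the others. That library had the lowest CPM of the 4 for every other subunit too, with a subunit sum of 4140 CPM against up to 6036 CPM. Cct8 further had 825 CPM in 8-cell library B against 949 to 966 CPM and 1040 CPM in 4-cell library D against 938 to 955 CPM. Cct4 had 25.4 CPM in MII library B against 13.3 to 14.8 CPM, Tcp1 502 CPM in 8-cell library A against 429 to 441 CPM, and Cct2 159 CPM in GV library B against 167 to 168 CPM.

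The heavy minus light difference changed between stages for 3 subunits from 2-cell to 4-cell, by an interaction term in limma over all genes, with -3.73 (SE 1.00, adjusted p 0.011) for Cct3, 2.83 (SE 0.83, adjusted p 0.020) for Cct5 and -3.24 (SE 1.06, adjusted p 0.039) for Cct8, where 11.7% of all genes changed. From 4-cell to 8-cell it changed for Cct4, with 4.25 (SE 1.12, adjusted p 0.031), where 2.47% of all genes did. These were 4 of 56 differences tested, and all involve the stages whose gradients varied most.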

How the results depend on the processing

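In transcriptomes the counts of 4 subunits called from GV to MII, 2 from zygote to 2-cell and 8 from 2-cell to 4-cell were the same without any 1 library, and the count of 0 from morula to blastocyst became 1 in edgeR. Relative to the complex, the median as reference gave 4 subunits from GV to MII and 1 from MII to zygote, and single libraries left out gave 1 to 3 and 0 to 1.

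Heavy against light, a fit of only the groups compared called 1 subunit in MII oocytes, 1 in zygotes, 0 in 2-cell and 0 in 4-cell embryos, 4 in morulae and 2 in blastocysts, where it called 19.5%, 18.5%, 1.9%, 0, 14.7% and 21.7% of all genes. edgeR called 0 in 2-cell and 0 in 4-cell embryos, where quantile normalization and leaving out fraction 1 also gave 0 in 4-cell embryos. Fractions 7 to 10 against 1 to 4 gave 1 in morulae. Single gradients left out gave 1 to 2 (2-cell), 0 to 3 (4-cell) and 0 (blastocyst).

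With the replicate block, 1 subunit was called heavy against light in 4-cell embryos and 1 in morulae, and no other count of calls changed. The transcriptome block could not include the 2-cell stage.

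Beyond the transcriptome, GV to MII gave 1 with quantile normalization and 1 with only the groups compared. The latter also gave 3 (zygote to 2-cell), 2 (2-cell to 4-cell), 1 (4-cell to 8-cell), 2 (8-cell to morula) and 2 (morula to blastocyst). Such fits called 24.8% of all genes from GV to MII, and 25.3%, 15.3%, 3.12%, 7.47% and 11.8% in the later steps named, in order. edgeR gave 2 (zygote to 2-cell) and 1 (4-cell to 8-cell), where Cct5 reversed to -0.237 (adjusted p 0.93). Single libraries left out gave 3 to 5 from 4-cell to 8-cell and 0 to 1 from 8-cell to morula. Without fraction 1, the median mean fraction number was 6.655 in zygotes, 7.608 in morulae and 6.921 in blastocysts. The cause was not tested for these changes. Of the values for single subunits, 32 lost a call and 13 gained one with a library left out, and 37 and 25 did under the other alternatives. Few reads limit Cct6a before the 2-cell stage and all subunits in 2-cell and 4-cell fractions. Across fractions 2 to 10, 44.9% of the subunit values in 2-cell and 20.8% in 4-cell embryos had at most 3 reads.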
